A study of Mus musculus with 2 samples.

Results

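The loss of all T cells by a deletion of *Cd3e* was compared with the depletion of CD8+ T cells by an antibody, in the CD45+ cells of pressure-overloaded mouse hearts. Cells with at least 500 detected genes and a mitochondrial share of reads of at most 0.4 were taken, which gave 919 cells of CD3e-/- TAC hearts and 894 cells of hearts labelled CD8-depleted TAC, together 1813 of the 5263 cells of the experiment. Monocytes and macrophages were taken apart as cells with at least 200 CPM (counts scaled to a total of 1000000 reads) of *Csf1r*, the receptor of macrophage colony-stimulating factor, and at least 2000 CPM of *Lyz2*, the lysozyme of myeloid cells. These *Csf1r* *Lyz2* cells numbered 672 in CD3e-/- TAC and 607 in labelled CD8-depleted TAC hearts, together 1279 of 3424.

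Transverse aortic constriction (TAC) narrows the aorta with a suture and makes the left ventricle pump against a raised pressure. The hearts came from male mice, 8 weeks old by the study's methods, and were collected 1 week after surgery. The labels give the strain as C57BL/6N for the whole library, while the methods give no more than a C57BL/6 background for the CD3e-/- mice. CD45+ cells were enriched from them on magnetic beads and sequenced by TAS-Seq, a whole-transcriptome method on the BD Rhapsody microwell system. The CD3e-/- mice lack CD3e in every cell from birth, and thus have no mature T cell of any kind, whereas the CD8-depleted mice were WT mice that received an antibody to CD8 from the day of TAC on, so that the length of T cell absence differed between the groups as well as its kind. WT sham, CD3e-/- sham and WT TAC hearts were measured in the same library and their values are given beside the comparison. Each of the 5 groups was 1 pooled sample marked by a hashtag, the number of mice in a pool is not given in the sources used here, and there was no CD8-depleted sham group.

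Macrophages of the healthy heart descend in part from embryonic cells that renew in place and carry receptors such as CD163, LYVE1 and FOLR2, with which they take up haemoglobin complexes, hyaluronan and folate. Pressure overload adds macrophages from blood monocytes, which enter by CCR2, carry Ly6C when they are young and change their genes in the tissue under cytokines, interferons, lipids and dead cells. T cells are one source of such cytokines: interferon-gamma of CD8+ and helper T cells induces antigen presentation and chemokines such as CXCL9 and CXCL10, whereas interleukins 4 and 13 induce alternative activation genes such as *Arg1*, *Retnla* and *Mgl2*.

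With 1 sample a side there is no replicate and no test, and the differences below are descriptions of these pools. Reads were summed over the cells of a group and scaled to CPM, and ratios are log2 ratios of CD3e-/- TAC over labelled CD8-depleted TAC with 10 CPM added to both sides. Intervals are exact 95% intervals (Poisson for summed reads, Clopper-Pearson for shares of cells) that cover counting error only, and they are too narrow for reads, since reads are not separate molecules. In a sum over cells, fewer cells that express a gene and less RNA per cell cannot be told apart, so the numbers of cells are given where a result turns on them. The cells had total reads of 109031226 and 136130015 in labelled CD8-depleted TAC and CD3e-/- TAC, with medians of 98471 and 117788 reads per cell, so the CD3e-/- TAC cells were the deeper ones, and the 5 groups ranged from 91899777 to 208758777 reads. No cell barcode was shared by 2 columns of the matrix.

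The T cell genes matched the CD3e-/- label. A read of *Cd3g* was found in 1 of 919 cells of CD3e-/- TAC and in 32 of 894 cells of labelled CD8-depleted TAC. A total of 11 cells of CD3e-/- TAC (1.20%, 0.599 to 2.13%) and 41 cells of labelled CD8-depleted TAC (4.59%, 3.31 to 6.17%) had at least 20 CPM of 2 or more of the genes *Cd3d*, *Cd3e*, *Cd3g*, *Trac*, *Trbc1* and *Trbc2*, and are called T-gate cells. Of the 41 cells, 37 had a read of a Cd3 gene, and of the 11 cells 2 did, while 7 of the 11 had a read of *Ncr1* or *Klrb1c*, receptors of natural killer (NK) cells, which transcribe the T cell receptor beta constant genes without a T cell receptor. Reads of *Cd3e* itself were found in 83 cells of CD3e-/- TAC and 51 cells of labelled CD8-depleted TAC, at 5.64 and 13.6 CPM of all CD45+ cells, and the matrix does not tell whether they lie in the deleted part of the gene, so they do not check the label.

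The CD8 genes did not part the other group from untreated WT TAC. T-gate cells with a read of *Cd8a* or *Cd8b1*, the chains of CD8, were 6 of 894 cells (0.671%, 0.247 to 1.46%) for hearts labelled CD8-depleted TAC and 11 of 1615 cells (0.681%, 0.341 to 1.22%) in WT TAC, which received no antibody. CD3e-/- TAC had 0 of 919 such cells, which allows a share of up to 0.326% by the limit of 3 counts and of up to 0.401% by the exact interval. T-gate cells with a read of *Cd4*, the coreceptor of helper T cells, were 23 in labelled CD8-depleted TAC, 30 in WT TAC and 2 in CD3e-/- TAC. These are few cells with wide intervals, and the study's own check of the depletion, by flow cytometry, was not used here. The word labelled is kept before CD8-depleted TAC for this reason.

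The monocytes and macrophages of the groups were alike in most genes. Among 3675 genes with at least 50 CPM in either group and reads in at least 20 cells of the higher one, the median log2 ratio was 0.01 and 98.5% lay within 1.5-fold. A total of 12 genes were over 2-fold higher in CD3e-/- TAC, which is 0.327% of the genes, and 9 were over 2-fold lower, which is 0.245%. The same ratio between the shams, CD3e-/- over WT, which shares no cells with this contrast, put 97.1% of 3631 genes within 1.5-fold and 15 genes past 2-fold. The genes next to the 2-fold line were *Ecm1* at 1.08 and *Wfdc17* at 0.998 on the higher side, and *Mgl2* at −1.04 and *Slco2b1* at −0.98 on the lower side.

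**Figure D1:**
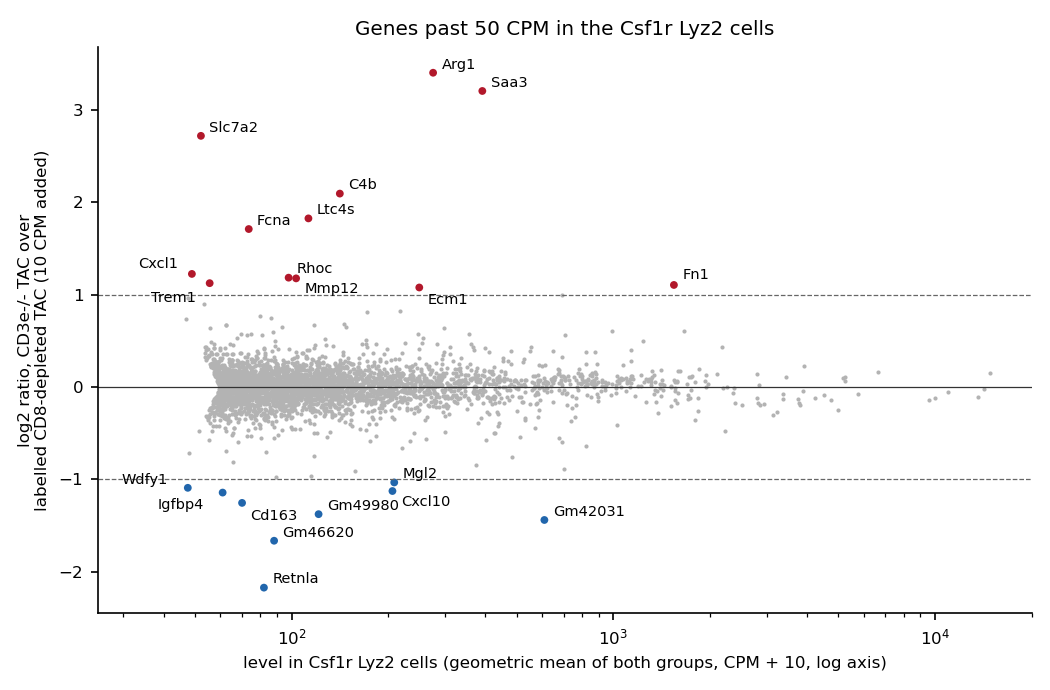
Log2 ratio of CD3e-/- TAC over labelled CD8-depleted TAC (vertical axis, 10 CPM added) against the level of each gene in the Csf1r Lyz2 cells (horizontal axis, CPM, log scale), with 1 point a gene for the 3675 genes past 50 CPM. Dashed lines mark 2-fold, and the 12 genes above the upper and 9 genes below the lower line are named.

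The genes of the highest ratios code for enzymes of arginine and leukotriene metabolism, an acute-phase protein and complement and pattern-recognition proteins. *Arg1*, the arginase that turns arginine into ornithine and urea, stood at 5.0 CPM in WT sham, 20.8 in CD3e-/- sham, 204 in WT TAC, 74.7 (72.7 to 76.6) in labelled CD8-depleted TAC and 885 (880 to 891) in CD3e-/- TAC, a log2 ratio of 3.40 between the last groups. WT TAC thus lay between them. Reads of *Arg1* came from 92 of 672 *Csf1r* *Lyz2* cells in CD3e-/- TAC and 35 of 607 in labelled CD8-depleted TAC, and cells with 500 CPM or more were 62 (9.23%, 7.15 to 11.7%) and 18 (2.97%, 1.77 to 4.65%). Among the cells with a read, the median level was 1198 CPM in CD3e-/- TAC and 569 CPM in labelled CD8-depleted TAC, so both the number of *Arg1* cells and their level were higher in CD3e-/- TAC. With each cell thinned to 39109 reads, the shares with a read were 14.3% and 6.04%. In 289 B cells, a part of those of the experiment that served as a background, the share was 0.692%.

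*Slc7a2*, which carries arginine into the cell, had the highest ratio after *Arg1* and *Saa3*, with 18.3% of its reads in 1 cell of CD3e-/- TAC. Its levels were 5.25, 11.99, 15.1, 10.4 and 124 CPM in WT sham, CD3e-/- sham, WT TAC, labelled CD8-depleted TAC and CD3e-/- TAC, a log2 ratio of 2.72. CD3e-/- TAC stood alone, with the other 4 groups between 5.25 and 15.1 CPM. Cells with 500 CPM or more of *Slc7a2* were 13 in CD3e-/- TAC and 0 in labelled CD8-depleted TAC, and a read of it in a thinned cell was no rarer in B cells (24.2%) than in the *Csf1r* *Lyz2* cells (19.4% and 15.5%), so its low levels are background and the difference lies in few cells of high level. *Il4ra*, the receptor chain for interleukins 4 and 13, stood at 193 CPM in CD3e-/- TAC and 133 in labelled CD8-depleted TAC, a log2 ratio of 0.51, and at 67.3 to 144 CPM in the other groups.

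*C4b*, the complement component that C1 and the lectin pathway cleave, had levels of 24.2, 15.6, 49.2, 58.4 and 282 CPM in the same order of groups, and its log2 ratio was 2.09. Reads came from 113 cells of CD3e-/- TAC and 66 of labelled CD8-depleted TAC. *Fcna*, a ficolin that binds sugars of microbes and starts the lectin pathway, stood at 16.8, 5.15, 12.3, 30.7 and 123 CPM, a log2 ratio of 1.71, with reads in 70 and 28 cells. The complement list as a whole did not follow them: 8 of its 12 measured members lay above 0 and 4 below, with a median of 0.14, and *C1qa* (−0.01), *C1qc* (−0.07) and C3 (−0.11) were close to equal, while *Cfb*, factor B of the alternative pathway, was at 0.32.

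*Ltc4s*, the synthase of leukotriene C4, stood at 52.3, 28.7, 37.5, 49.9 and 202 CPM, a log2 ratio of 1.82. *Vsig4*, a complement receptor of resident macrophages, was at 9.80 CPM in labelled CD8-depleted TAC and 105 in CD3e-/- TAC, but its reads came from 9 and 17 cells, and it did not meet the minimum of 20 cells. *Ltc4s* and *Fcna* belong to the list of resident macrophage genes, and among its measured members they were the ones furthest above 0, against the median of the list.

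*Fn1*, the matrix protein fibronectin, and *Ecm1*, a secreted matrix protein, were more widely expressed. *Fn1* stood at 852, 940, 1299, 1042 and 2251 CPM, a log2 ratio of 1.10, with reads in 607 cells of CD3e-/- TAC and 517 cells of labelled CD8-depleted TAC and a median over single cells of 185 and 46.6 CPM. *Ecm1* stood at 81.5, 97.8, 181, 162 and 352 CPM, a log2 ratio of 1.08. Of the 11 measured members of the matrix and protease list, 9 lay above 0 with a median of 0.15, among them *Plaur*, the urokinase receptor (0.44), while *Tgfbi* (−0.04) and *Vcan* (0.04) were near 0 and *Col14a1* was at −0.46. *Mmp12*, the macrophage elastase, stood at 141, 546, 196, 58.7 and 145 CPM, a log2 ratio of 1.18. CD3e-/- TAC thus lay below WT TAC, and labelled CD8-depleted TAC was the lowest group. In CD3e-/- TAC 1 cell held 26.1% of the *Mmp12* reads, and with the *Csf1r* and *Lyz2* thresholds doubled the ratio was −0.19.

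*Trem1*, a receptor that amplifies inflammatory signals, was past 2-fold in the shams as well. It stood at 11.9 CPM in WT sham, 37.4 in CD3e-/- sham, 24.4 in WT TAC, 27.7 in labelled CD8-depleted TAC and 72.1 in CD3e-/- TAC, with log2 ratios of 1.12 after TAC and 1.11 in the shams. The sham ratios of *Mmp12* (1.88) and *Arg1* (1.04) were also over 1, though *Arg1* and *Trem1* stayed under 50 CPM in both shams. The *Arg1* reads came from 4 cells in each sham. Reads of *Trem1* were found in 142 cells of CD3e-/- TAC and 66 of labelled CD8-depleted TAC. *Rhoc*, a small GTPase of cell movement, stood at 88.4, 76.6, 73.4, 55.0 and 138 CPM, a log2 ratio of 1.18, and *Wfdc17*, a secreted inhibitor protein of activated macrophages, at 376, 408, 522, 479 and 967 CPM.

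**Figure D2:**
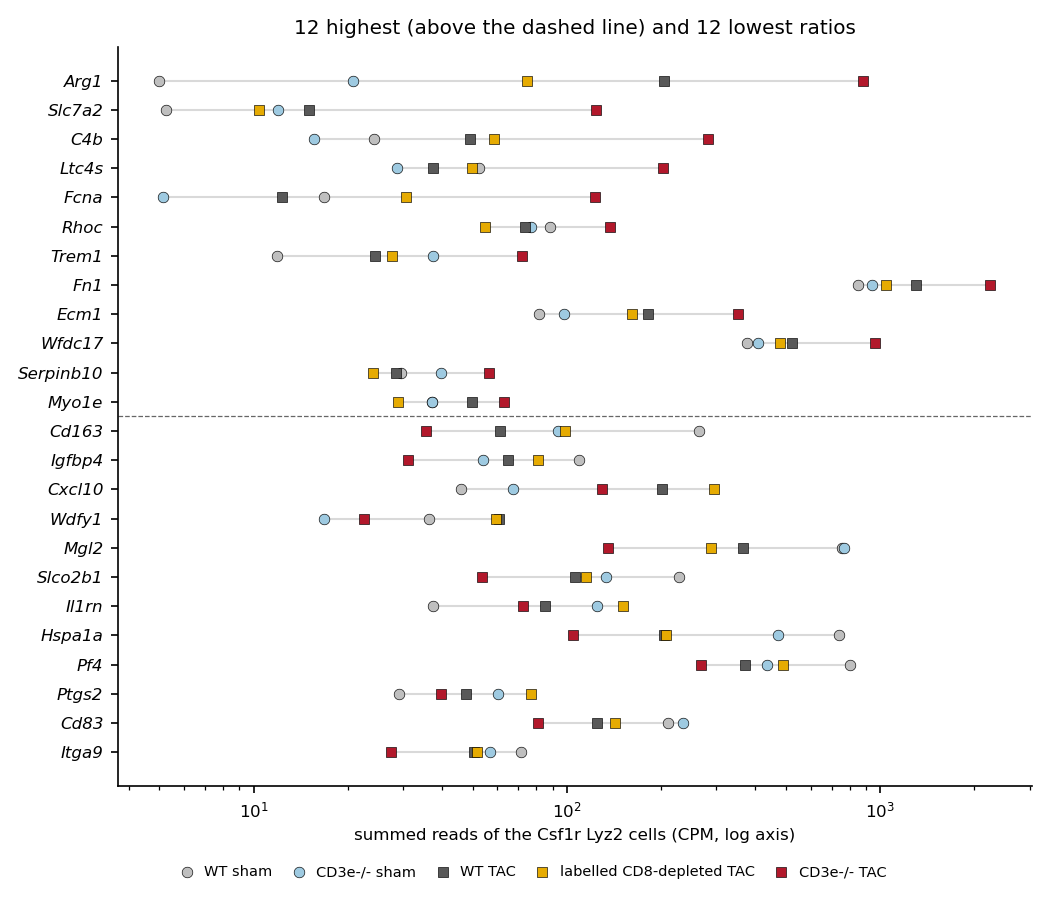
Levels in the Csf1r Lyz2 cells of the 5 groups (horizontal axis, CPM, log scale) for the 12 named genes of the highest ratios, above the dashed line, and the 12 of the lowest ratios, below it, with circles for shams, squares for TAC groups and a grey line over the range. CD3e-/- TAC (red) is the highest of the 5 groups for each of the upper genes, as for Arg1 at 885 CPM, and for 8 of the lower genes it is the lowest, the exceptions being Cxcl10, Wdfy1, Il1rn and Ptgs2.

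A small set of cells carried much of these reads. Cells with 500 CPM or more of both *Arg1* and *Saa3*, an acute-phase serum amyloid A that macrophages make, numbered 26 of the 672 *Csf1r* *Lyz2* cells of CD3e-/- TAC (3.87%, 2.54 to 5.62%), 2 of 607 in labelled CD8-depleted TAC (0.330%, 0.0399 to 1.19%), 2 of 1095 in WT TAC and 0 in both shams. With thresholds of 250 CPM they were 29 and 4 in CD3e-/- TAC and labelled CD8-depleted TAC, and with 1000 CPM 18 and 1. *Arg1* and *Saa3* chose these cells, so their levels in them are no result.

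The 26 cells were deep, with a median of 305940 reads and 6893 genes against 127033 reads and 4644.5 genes in the other 646 *Csf1r* *Lyz2* cells of CD3e-/- TAC, and none was in the gates of a second lineage. Doublets within the myeloid cells, which such gates do not show, were not tested. Genes known from macrophages of the serous cavities were found in many of them: reads of *Prg4*, which codes for lubricin, in 14 of 26 cells against 5 of 646 others, of *Gata6*, the transcription factor that peritoneal macrophages need, in 9 against 7, of *Selp* in 14 against 13, of F5, coagulation factor V, in 13 against 25, of *Alox15* in 8 against 1 and of *Cxcl13* in 8 against 4. *Timd4*, a phosphatidylserine receptor of resident macrophages, had reads in 13 of 26 against 14 of 646. The part of the higher depth in these counts was not tested. *Lyve1* was found in 2 of 26 against 19 of 646, and *Ccr2* in 14 of 26 against 485 of 646. These cells had more *Itgam* (2450 against 700 CPM) and less *H2-Ab1* (946 against 4074 CPM) and *Ly6c2* (249 against 982 CPM). Wt1 was at 0 and Msln in 1 of the 26 cells, both markers of mesothelium.

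The 26 cells held 8.41% of the reads of the *Csf1r* *Lyz2* cells of CD3e-/- TAC. Of the single genes, they held 57.5% of the *Slc7a2* reads, 51.0% of *C4b*, 45.1% of *Ecm1*, 38.1% of *Fcna*, 31.3% of *Ltc4s* and 30.5% of *Fn1*. They also held 97.1% of the *Saa3* and 46.3% of the *Arg1* reads, the genes they were chosen by. Without the *Arg1* *Saa3* cells of both groups, 6 of the 12 genes stayed past 2-fold: *Arg1* (2.88), *Slc7a2* (1.84), *Ltc4s* (1.52), *Fcna* (1.34), *C4b* (1.30) and *Mmp12* (1.28). *Trem1* was then at 0.98, *Rhoc* at 0.95, *Fn1* at 0.74 and *Ecm1* at 0.40. The neutrophil chemokine *Cxcl1* changed sign, from 1.22 to −0.33, but was then under 50 CPM in both groups. Its reads came from 33 cells of CD3e-/- TAC and 12 of labelled CD8-depleted TAC, with 32.5% and 52% of them in 1 cell. The ratios of *Arg1* and *Saa3* without the *Arg1* *Saa3* cells are set in part by the choice of those cells. That choice took 26 of the 29 cells with 500 CPM or more of *Saa3* from CD3e-/- TAC and 2 of 10 from labelled CD8-depleted TAC. Cells with 500 CPM or more of *Arg1* but less of *Saa3* numbered 36 in CD3e-/- TAC, 16 in labelled CD8-depleted TAC and 52 in the 1095 cells of WT TAC.

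**Figure D3:**
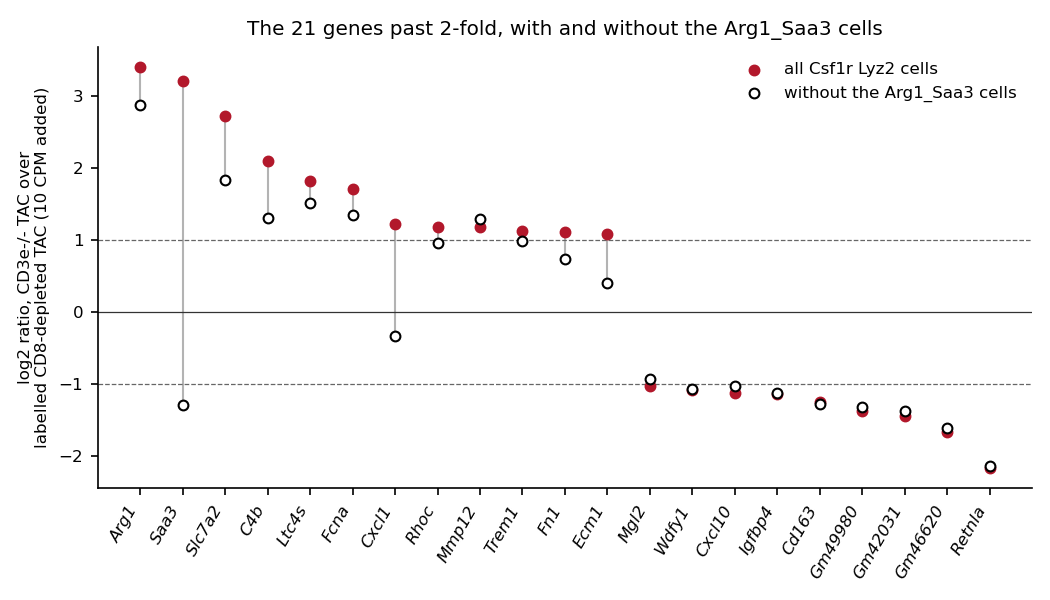
Log2 ratios of CD3e-/- TAC over labelled CD8-depleted TAC (vertical axis, 10 CPM added) of the 21 genes past 2-fold, in all Csf1r Lyz2 cells (red) and without the cells with 500 CPM or more of Arg1 and Saa3 (open). Cxcl1 moves from 1.22 to −0.33, where it is under 50 CPM in both groups, while the genes on the lower side move little. Saa3 and Arg1 chose the cells left out, so their moves are no result.

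On the lower side stood a scavenger receptor, an interferon-induced chemokine and a lectin of alternative activation. *Cd163*, the haemoglobin scavenger receptor of resident macrophages, was at 263 CPM in WT sham, 93.6 in CD3e-/- sham, 61.1 in WT TAC, 98.4 (96.2 to 101) in labelled CD8-depleted TAC and 35.4 (34.3 to 36.5) in CD3e-/- TAC, a log2 ratio of −1.26. CD3e-/- TAC was the lowest of the 5 groups. The log2 ratio of the shams was −1.40, so the knockout was the lower group at both surgeries. Reads came from 70 of 672 cells in CD3e-/- TAC and 112 of 607 in labelled CD8-depleted TAC, and in thinned cells the shares were 10.2% and 17.6%, with 2.42% of B cells as the background.

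Other genes of resident macrophages lay on the same side with smaller ratios. Of the 20 resident macrophage genes, 16 passed the minimum level, 6 of them above and 10 below 0 with a median of −0.28, and the median of the shams was −0.67. The lower ones were the prostaglandin dehydrogenase *Hpgd* (−0.66), the mannose receptor *Mrc1* (−0.59, 841 against 554 CPM), the scavenger receptor *Stab1* (−0.57), the coagulation factor *F13a1* (−0.54) and the carbonyl reductase *Cbr2* (−0.45). *Igfbp4*, which binds insulin-like growth factors and is no member of the list, had a log2 ratio of −1.15 (80.8 against 31.1 CPM), the organic anion carrier *Slco2b1* one of −0.98 and *Pf4*, platelet factor 4, which resident macrophages also make, one of −0.84 (490 against 269 CPM). *Lyve1*, the hyaluronan receptor, was at −0.05, though 1 cell held 39.7% of its reads in CD3e-/- TAC, and *Folr2*, the folate receptor, was at 0.27, or at −0.46 when each cell had the same weight.

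Cells were also counted by these receptors, a count that is not independent of the level of *Cd163*. *Csf1r* *Lyz2* cells with at least 100 CPM of 2 or more of *Folr2*, *Lyve1* and *Cd163*, called resident-like here as a range and not a type, were 62 of 607 in labelled CD8-depleted TAC (10.2%, 7.92 to 12.9%) and 32 of 672 in CD3e-/- TAC (4.76%, 3.28 to 6.66%). WT TAC had 7.67%, WT sham 19.5% and CD3e-/- sham 7.01%. With every cell thinned to 34832 reads the shares were 8.98% and 5.36%, and with doubled thresholds 7.74% and 3.27%.

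Genes that interleukins 4 and 13 induce did not move as one. *Mgl2*, a C-type lectin, stood at 754, 767, 366, 288 and 136 CPM, a log2 ratio of −1.04, with reads in 132 cells of CD3e-/- TAC and 190 of labelled CD8-depleted TAC. *Retnla*, the secreted protein FIZZ1, stood at 1968, 2763, 333, 164 and 28.6 CPM, a log2 ratio of −2.17, but 1 cell held 55.4% of its reads in labelled CD8-depleted TAC, and without the cell with the most reads in each group the ratio was −1.40. Of the 11 measured alternative activation genes, 5 lay above and 6 below 0 with a median of −0.11, and the member furthest above 0 was *Arg1*. The gene of the highest ratio and the gene of the lowest ratio thus belong to the same list.

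Genes that type I interferons induce lay on the lower side almost as a list, with small ratios. Of 24 members 20 passed the minimum level, 19 of them below 0 and 1 above, and the median was −0.27, against 0.01 over all genes and 0.21 for the list in the shams. *Cxcl10*, the chemokine that draws CXCR3-bearing T cells, was the one member past 2-fold, at 46.0, 67.4, 202, 294 (290 to 298) and 129 (127 to 131) CPM and a log2 ratio of −1.13. Its reads came from like numbers of cells, 69 of 672 in CD3e-/- TAC and 72 of 607 in labelled CD8-depleted TAC, and the median level of those cells was 504 and 747 CPM. *Usp18*, which dampens interferon signalling, was at −0.53, the antiviral GTPase *Mx1* at −0.50, *Ifit1* and *Rsad2*, which act on viral RNA and on nucleotides, at −0.40 each and the ubiquitin-like *Isg15* at −0.23. The exception was *Irf7*, the transcription factor that amplifies the response, at 0.06. labelled CD8-depleted TAC was the highest of the 5 groups for *Ifit1*, at 7.13, 19.7, 76.7, 125 and 92.1 CPM, and for *Rsad2*, at 18.7, 25.2, 127, 201 and 149 CPM.

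The interferon-stimulated response element, to which the factors IRF and ISGF3 bind, is a known element in promoters of such genes. It was searched for as TTTCNNTTTC on either strand in the 250 bases before the start of each gene, in the RefSeq sequences of GRCm38.p6, in which 16 of the 20 measured members were found. A match stood in 9 of these 16 promoters (56.2%), against 821 of all 27025 promoters (3.04%) and 117 of the 2868 found for genes past the minimum level (4.08%). In the interferon-gamma list it stood in 6 of 10 promoters (60.0%). The promoters of *Cxcl10*, with the lowest ratio of the list, and of *Ifit1* and *Rsad2* are shown since they hold 1, 2 and 1 matches, which are in capitals. They lie at chr5:92348890-92349139 (minus strand), chr19:34640639-34640888 (plus strand) and chr12:26456453-26456702 (minus strand) and read 5′ to 3′ along the gene, with the matches starting 213 bases before the start of *Cxcl10*, 104 and 85 before *Ifit1* and 120 before *Rsad2*.
Cxcl10: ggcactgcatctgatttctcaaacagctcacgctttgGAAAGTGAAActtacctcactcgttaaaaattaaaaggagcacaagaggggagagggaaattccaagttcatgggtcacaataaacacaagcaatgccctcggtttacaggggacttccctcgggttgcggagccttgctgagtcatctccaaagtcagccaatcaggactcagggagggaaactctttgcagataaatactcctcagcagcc
Ifit1: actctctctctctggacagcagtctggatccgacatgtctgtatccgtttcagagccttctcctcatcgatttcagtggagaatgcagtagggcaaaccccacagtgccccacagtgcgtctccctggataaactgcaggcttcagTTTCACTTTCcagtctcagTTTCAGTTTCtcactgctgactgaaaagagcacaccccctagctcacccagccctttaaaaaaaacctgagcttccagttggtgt
Rsad2: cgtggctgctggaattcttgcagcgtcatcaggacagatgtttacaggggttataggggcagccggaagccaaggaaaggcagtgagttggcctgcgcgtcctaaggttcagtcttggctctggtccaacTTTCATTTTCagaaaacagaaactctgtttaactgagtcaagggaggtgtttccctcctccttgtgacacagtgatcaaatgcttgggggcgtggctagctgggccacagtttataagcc
A match describes the letters of the promoter and says nothing on what bound there in these cells.

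Genes of the interferon-gamma response and of antigen presentation differed little. Of 24 interferon-gamma genes 11 were measured, 10 below 0 and 1 above with a median of −0.20. The GTPases *Ifi47* (−0.41) and *Gbp2* (−0.26) and the factor *Irf1* (−0.27) were lowest, and the chemokine *Cxcl9* was highest at 0.43, with reads in 21 and 16 cells and 23.3% of its reads in 1 cell of CD3e-/- TAC. The 7 measured MHC class II genes lay between −0.16 and −0.04, with *H2-Ab1* at 3936 CPM in labelled CD8-depleted TAC and 3811 in CD3e-/- TAC, below the 4588 CPM of WT TAC. Without the *Arg1* *Saa3* cells their median was 0.02 in place of −0.08. The 14 measured MHC class I genes had a median of 0.07, and H2-K1 stood at 1712 and 1962 CPM.

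**Figure D4:**
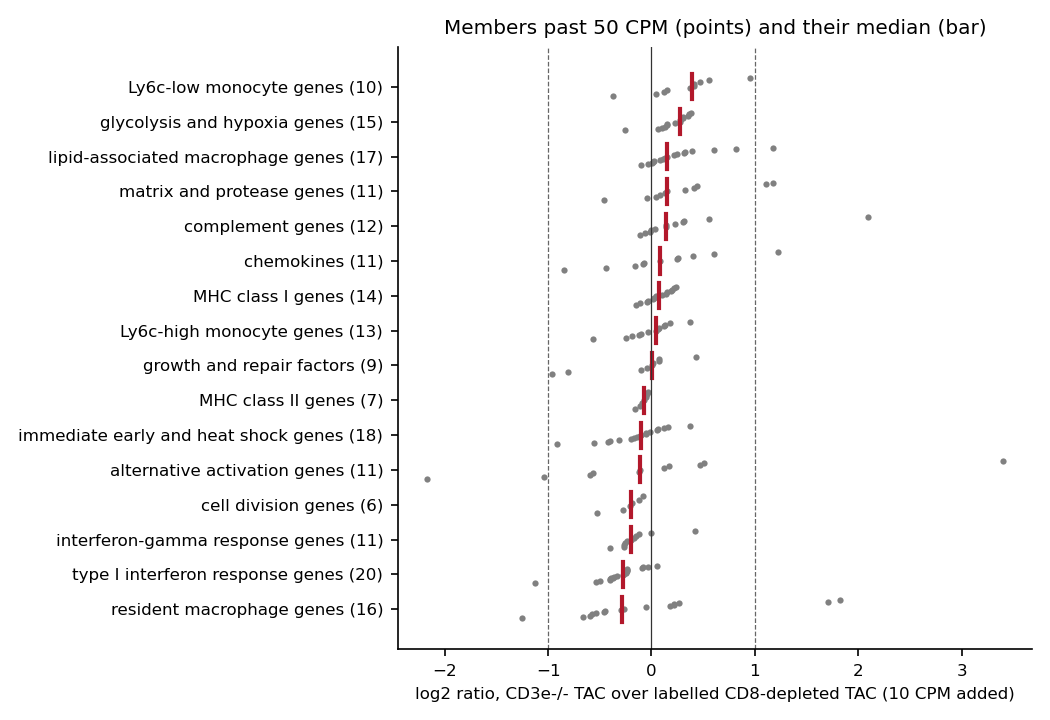
Log2 ratios of CD3e-/- TAC over labelled CD8-depleted TAC (horizontal axis, 10 CPM added) in the Csf1r Lyz2 cells, with 1 grey point for each member past 50 CPM, a red bar for the median and the number of such members in brackets. The type I interferon list (median −0.27) lies left of 0 but for 1 member, the resident macrophage list (−0.28) has members past 2-fold on both sides, and the Ly6c-low monocyte list has the highest median (0.39).

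Of the growth factor genes that the study named for macrophages of T cell-deficient hearts, *Igf1* and *Osm* passed the minimum level. *Igf1*, insulin-like growth factor 1, stood at 204, 122, 213, 174 and 169 CPM, a log2 ratio of −0.05. The ratio was −0.37 when each cell had the same weight, and 33.4% of thinned cells of labelled CD8-depleted TAC and 26.6% of CD3e-/- TAC had a read of it. The 26 *Arg1* *Saa3* cells held 15.1% of its reads in CD3e-/- TAC. *Osm*, oncostatin M, stood at 79.4, 121, 121, 173 and 161 CPM, a log2 ratio of −0.10, so both groups lay above WT TAC. *Areg*, amphiregulin, was at 4.09 and 9.86 CPM with reads in 4 and 6 cells, under the minimum level. *Csf1*, the growth factor of macrophages, was at 30.6 CPM in labelled CD8-depleted TAC and 11.4 in CD3e-/- TAC, with reads in 8.53% and 4.45% of thinned cells, and *Il10* at 2.16 and 4.47 CPM, both also under it. Of the 9 growth and repair genes past the minimum, 5 lay above and 4 below 0 with a median of 0.00, the lowest being *Il1rn*, the interleukin 1 receptor antagonist (−0.97, 151 against 72.4 CPM), and the cyclooxygenase *Ptgs2* (−0.81, 77.1 against 39.7 CPM). Both stood the other way between the shams, at 1.51 and 0.85.

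Of the study's other macrophage genes, *Arg1*, *Cd163* and *Ptgs2* were described above. *Msr1*, a scavenger receptor for modified lipoproteins, stood at 168, 172, 293, 304 and 415 CPM, a log2 ratio of 0.43, and at 0.19 without the *Arg1* *Saa3* cells. *Ccr2* was at −0.12, the F4/80 gene *Adgre1* at −0.09 and *Cd68* at −0.06.

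Lipid-associated macrophage genes and sugar metabolism genes lay mostly above 0. Of the 17 measured lipid-associated macrophage genes 15 were above 0, with a median of 0.15, which was also that of the shams, and the cathepsins *Ctsl* (0.82) and *Ctsd* (0.60) stood highest next to *Mmp12*. *Gpnmb* (0.08), *Trem2* (0.24) and *Spp1* (0.33) were lower on that side. Of the 15 measured glycolysis and hypoxia genes 14 were above 0, with a median of 0.28 against 0.33 in the shams, and the aldolase *Aldoa* stood at 473 and 621 CPM, a log2 ratio of 0.38, with *Hif1a*, the factor that induces many of them, at −0.26. Without the *Arg1* *Saa3* cells, *Ctsd* was at 0.30 and *Aldoa* at 0.22. The median of the lipid-associated list was then 0.13 and that of the glycolysis and hypoxia list 0.18, from 14 measured members. The CD3e-/- cells had more reads per cell at both surgeries, with medians of 129014 against 107620 after TAC and of 84408 against 76303 in the shams, and the part of this in the sugar metabolism genes was not tested.

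The young monocytes were alike in number and the Ly6c-low ones were not. Cells with at least 1000 CPM of *Ly6c2*, the surface antigen of young monocytes, were 116 of 607 in labelled CD8-depleted TAC (19.1%, 16.1 to 22.5%) and 134 of 672 in CD3e-/- TAC (19.9%, 17.0 to 23.2%), both above the 9.13% (7.49 to 11.0%) of WT TAC. *Ly6c2* itself stood at 112, 334, 402, 943 and 920 CPM. Of the 13 measured Ly6c-high monocyte genes 7 lay above and 6 below 0, with a median of 0.04. *Chil3*, a chitinase-like protein, was the lowest at −0.57 (308 against 204 CPM) and *Plac8* was at 0.18.

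Ly6c-low monocytes patrol the vessels and bear the angiotensin-converting enzyme *Ace*. Cells with at least 50 CPM of 2 or more of *Ace*, *Treml4* and *Cd300e* were 28 of 607 in labelled CD8-depleted TAC (4.61%, 3.09 to 6.60%) and 62 of 672 in CD3e-/- TAC (9.23%, 7.15 to 11.7%). WT TAC had 5.02%, WT sham 2.83% and CD3e-/- sham 5.98%, so each CD3e-/- group had more than its WT group. In cells thinned to 34832 reads the shares were 4.58% and 9.31%. Of the 10 measured Ly6c-low genes 9 lay above 0, with a median of 0.39, such as *Serpinb10* (0.96), *Ace* (0.56) and *Gngt2* (0.47), while the fractalkine receptor *Cx3cr1* was at −0.37. The list holds *Ace*, *Treml4* and *Cd300e*, so it is not independent of the count of cells. Within the Ly6c-low cells its median was 0.097, against 0.17 over all genes measured there. With the mix of cells set equal, *Ace* was at −0.06.

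**Figure D5:**
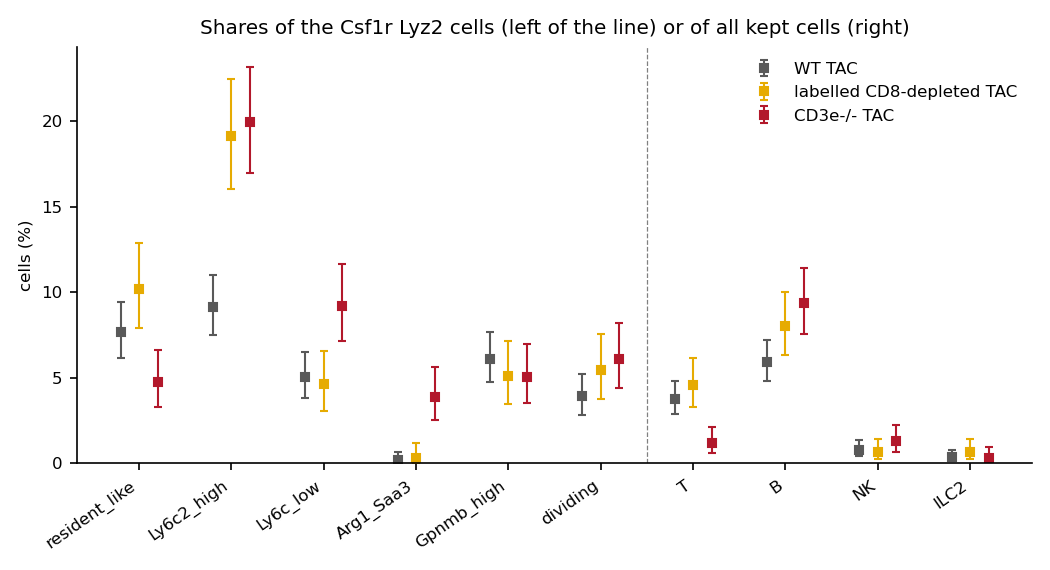
Shares of cells (vertical axis, %) past thresholds on marker genes in WT TAC, labelled CD8-depleted TAC and CD3e-/- TAC, of the Csf1r Lyz2 cells left of the dashed line and of all kept CD45+ cells right of it. Squares are the shares and bars exact 95% intervals for counting error. The intervals of labelled CD8-depleted TAC and CD3e-/- TAC are apart for the resident_like, Ly6c_low, Arg1_Saa3 and T cells.

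Chemokine and early response genes lay on both sides. Of 11 measured chemokines 6 were above and 5 below 0, with a median of 0.08, and the neutrophil chemokine *Cxcl2* was at 0.61 while the monocyte chemokine *Ccl2* was at −0.44 (656 against 480 CPM). Of 18 measured immediate early and heat shock genes, which also respond to the digestion of tissue, 13 were below 0 with a median of −0.11, and the lowest were the chaperone *Hspa1a* (−0.92, 207 against 105 CPM) and the early factors *Egr1* (−0.56) and *Jun* (−0.42).

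Reads of other cell types were few in the *Csf1r* *Lyz2* cells. The summed level of the 16 T cell genes was 40.9 CPM in labelled CD8-depleted TAC and 13.2 CPM in CD3e-/- TAC, that of 21 B cell genes 367 and 427 CPM, that of 14 neutrophil genes 244 and 179 CPM and that of 17 cardiac and vascular genes 67.7 and 84.0 CPM. With cells that passed the thresholds of more than 1 lineage left out, 12 genes were past 2-fold on the higher side and 9 on the lower side.

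Other ranges had intervals that overlap. Cells with high MHC class II (at least 1000 CPM of *H2-Ab1* and 5000 CPM of *Cd74*) were 51.6% (47.5 to 55.6%) in labelled CD8-depleted TAC and 58.5% (54.7 to 62.2%) in CD3e-/- TAC. This gap of 6.92 percentage points was 4.86 to 7.67 points under the alternatives tried. Cells with at least 1000 CPM of *Ccr2* were 54.5% and 57.3%, dividing cells with *Mki67* and *Top2a* 5.44% and 6.10%, and cells with at least 200 CPM of *Gpnmb* 5.11% and 5.06%. Of the 20 cell division genes 6 were measured, all below 0, with a median of −0.19 that was 0.02 when each cell had the same weight.

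The *Csf1r* *Lyz2* cells were then parted, in the order *Arg1* *Saa3*, Ly6c-low, *Ly6c2*-high, resident-like and other cells, to see where the ratios stood. In the *Ly6c2*-high part, of 111 cells in labelled CD8-depleted TAC and 119 in CD3e-/- TAC, *Arg1* was at 126 and 122 CPM. That part leaves out the *Arg1* *Saa3* cells, which were chosen by *Arg1* itself. Of the 26 such cells of CD3e-/- TAC, 2 also passed the *Ly6c2* threshold, so the near equality is set in part by that choice. In the remaining cells, 407 and 437 in number, *Arg1* was at 54.9 and 540 CPM, a log2 ratio of 3.08. In the resident-like part, of 59 and 29 cells, *Arg1* was at 10.6 and 2481 CPM, from 1 and 7 cells with a read. *C4b* was higher in CD3e-/- TAC in the resident-like part (226 against 650 CPM) and in the remaining cells (51.7 against 157 CPM), as was *Ltc4s*, at 212 and 1008 CPM and at 41.1 and 125 CPM. The resident-like cells differed in depth, with medians of 93831 and 180320 reads.

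The interferon-induced genes were lower in some parts and not in all. *Cxcl10* was at 680 and 356 CPM in the *Ly6c2*-high cells (−0.91) and at 242 and 98.7 CPM in the remaining cells (−1.21), while in the few Ly6c-low cells it was at 47.5 and 74.9 CPM, from 4 and 5 cells with a read. The type I interferon list had medians of −0.29 in the *Ly6c2*-high cells, with 21 of 23 measured members below 0, and of −0.22 in the remaining cells, with 15 of 17 below 0. In the Ly6c-low cells it was 0.24, with 4 of 4 measured members above 0, against 0.17 over the 2810 genes measured there.

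The MHC class II genes stood out in the *Ly6c2*-high part. *H2-Ab1* was at 1864 CPM in labelled CD8-depleted TAC and 4263 in CD3e-/- TAC there, with reads in 60 of 111 and 80 of 119 cells, and *Cd74*, the invariant chain, at 5766 and 11230 CPM. The 7 measured members had a median of 0.96, with 3 past 2-fold on the higher side. Over the 3746 genes measured in that part the median was −0.01, and 11 genes (0.294%) were past 2-fold on that side and 18 (0.481%) on the lower side. In WT TAC, *H2-Ab1* was at 2267 CPM in this part. In the resident-like cells the median of the list was −0.55, from 5 measured members in 59 and 29 cells, against −0.15 over all genes measured there. In the Ly6c-low cells it was 0.21, against 0.17 over all genes there, and in the remaining cells −0.11. The near-equal value over all *Csf1r* *Lyz2* cells thus joined parts of opposite sign.

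Over all CD45+ cells the T cell genes were added to the lower side. Of 3776 genes past the minimum, 10 were over 2-fold higher in CD3e-/- TAC (0.265%) and 10 over 2-fold lower (0.265%), and 17 of these 20 were among the 21 genes of the *Csf1r* *Lyz2* cells. The added genes on the lower side were *Trbc2*, a constant region of the T cell receptor (50.03 against 4.25 CPM, −2.08), *Thy1*, an antigen of T and innate lymphoid cells (56.8 against 9.99 CPM, −1.74), and *Mcpt4*, a mast cell protease (198 against 8.71 CPM, −3.47). *Mcpt4* turned on few cells, since 5 cells of labelled CD8-depleted TAC and 0 of CD3e-/- TAC had 1000 CPM or more of it, and another mast cell protease, *Cma1*, was at that level in 7 and 2 cells. Of the 15 NK and cytotoxic genes 2 passed the minimum level, the chemokine *Ccl5* at −0.93 (103 against 49.4 CPM) and the NK receptor *Klrd1* at −0.81. *Ncr1*, under it, stood the other way, at 4.09 and 6.69 CPM.

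B cells and dendritic cells were close in number, and NK and innate lymphoid cells were few. NK-gate cells, with at least 20 CPM of 2 or more of *Ncr1*, *Klrb1c* and *Klre1*, were 6 in labelled CD8-depleted TAC and 12 in CD3e-/- TAC. Without cells in more than 1 lineage gate they were 4 and 5. That step also leaves out NK cells that pass the T gate, and 7 of the 11 T-gate cells of CD3e-/- TAC had a read of *Ncr1* or *Klrb1c*. Type 2 innate lymphoid cells, by *Gata3*, *Rora* and *Il7r*, were 6 and 3. B cells, by *Cd79a* and *Ms4a1*, were 72 (8.05%, 6.36 to 10.03%) and 86 (9.36%, 7.55 to 11.4%), and *Cd79a* stood at 137 and 146 CPM. Conventional dendritic cells of type 1, by *Xcr1* and *Clec9a*, were 19 and 15, and of type 2, by *Cd209a* and *Flt3*, 28 and 25, with *Cd209a* at 155 and 91.9 CPM of all CD45+ cells. Neutrophils were 13 and 8. The *Csf1r* *Lyz2* cells made up 67.9% (64.7 to 71.0%) and 73.1% (70.1 to 76.0%) of the kept cells.

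Some of the lower genes parted the 2 CD3e-/- groups from the other 3 groups. *Gm42031*, a gene model without a name, stood at 809, 336, 895, 996 and 360 CPM in WT sham, CD3e-/- sham, WT TAC, labelled CD8-depleted TAC and CD3e-/- TAC, *Gm46620* at 97.0, 39.6, 137, 147 and 39.5 CPM, and *Gm49980* at 168, 66.9, 169, 186 and 65.2 CPM. *Wdfy1*, an adaptor protein of endosomes, stood at 36.3, 16.8, 60.5, 59.5 and 22.6 CPM, a log2 ratio of −1.09 after TAC and −0.79 in the shams. These 4 were among the 9 genes past 2-fold on the lower side. In the *Csf1r* *Lyz2* cells they set apart mice of a knockout line and WT mice whatever the surgery. The genotype at *Cd3e* and other differences between the lines cannot be told apart.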

How the data were processed

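CD45+ cells of 5 groups of mouse hearts were pooled in 1 hashtagged TAS-Seq library, so all groups share its preparation. The deposited matrix holds raw counts, which the authors made as reads per gene and cell barcode, with barcodes kept above an inflection point and an error correction based on the distribution of the reads. The submitters' processing notes name cutadapt 2.10, Bowtie2 2.4.2 and the build GRCm38. The notes deposited with the matrix pair each hashtag with its group. Of 5363 columns, 40 labelled as doublets by the authors and 8 without a hashtag were left out, and no further doublet caller was run. The study's methods mark a larger share of columns as doublets than these 40 make up, and whether others were removed before deposit is not given in the sources used here.

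Columns with fewer than 500 genes or with a mitochondrial share over 0.4 were dropped. Reads were summed per group and scaled to CPM, and log2 ratios were taken with 10 CPM added, among genes with at least 50 CPM in 1 of the groups compared and reads in at least 20 cells of the higher one. With 1 sample per group, no test was made. Named genes were the 12 highest and 12 lowest ratios in the *Csf1r* *Lyz2* cells with no cell over 20% of the reads and without nameless models, 6 and 6 more over all CD45+ cells, up to 3 members at each end of each list, and the genes the study or the labels point to. Genes outside this rule were named where a result turned on them, after their values were seen. The members, gene lists and thresholds were chosen with earlier results of these data known, and support nothing by themselves. The steps were checked on simulated counts. Figures were drawn with matplotlib 3.10.9, and values computed with pandas 2.3.3, scipy 1.17.1 and numpy 2.4.6 in Python 3.11.15.

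A group had 835 to 1615 kept cells, so a share near 5% of the *Csf1r* *Lyz2* cells has an interval of several percentage points. Alternatives were tried for the added CPM, the minimum level, the cell filters, the weight of cells, the scaling, the *Csf1r* and *Lyz2* thresholds, single cells and the mix of cells.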

Additional observations from a re-analysis of the deposited data

How the results depend on the processing

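No paired analysis was possible because each group was 1 pooled sample, and leaving out a replicate was not possible for the same reason. The numbers of genes past 2-fold in the *Csf1r* *Lyz2* cells, 12 higher and 9 lower in CD3e-/- TAC, were 7 and 4 with 50 CPM added. There were 21 higher with a minimum of 20 CPM, 27 without a minimum and 7 without the *Arg1* *Saa3* cells. Over all CD45+ cells, the 10 higher genes were 17 with a minimum of 20 CPM, 28 without one, 5 when each cell had the same weight and 6 without the *Arg1* *Saa3* cells. The 10 lower genes were 5 with 50 CPM added, 16 with a minimum of 20 CPM and 34 without one. Of the medians of gene lists, that of the type I interferon genes (−0.27) was −0.22 with 50 CPM added, −0.18 with the *Csf1r* and *Lyz2* thresholds doubled, −0.20 without the *Arg1* *Saa3* cells and −0.23 with the mix of cells set equal. That of the MHC class II genes (−0.08) was 0.054 with equal weights of cells, −0.17 with doubled thresholds, 0.020 without the *Arg1* *Saa3* cells and 0.029 with an equal mix. That of the cell division genes (−0.19) was −0.062 without a minimum, 0.023 with equal weights, −0.065 with doubled thresholds and −0.059 with an equal mix. Of the named genes past 2-fold, 3 changed sign under an alternative. These were *Saa3* (−1.30) and *Cxcl1* (−0.33) without the *Arg1* *Saa3* cells, and *Mmp12* (−0.19) with doubled thresholds. For *Saa3* this follows in part from the choice of those cells by its own level, and *Cxcl1* was under 50 CPM in both groups without them. Named genes with smaller ratios also changed sign, such as *Folr2* (0.27 to −0.46 with equal weights of cells) and *Top2a* (−0.19 to 0.39 with doubled thresholds). The cause was not tested where an alternative does not itself remove cells or genes. The other 212 medians stayed within an interval drawn from the spread of ratios among the members of their list. That interval is not counting error and is wide for short lists, so it is a loose check of these medians. The other 38 numbers of genes and the 118 shares of cells moved by less than their counting error or 1.5-fold. Of the ratios of named genes, 1219 stayed within counting error and 528 moved beyond it without turning in this sense. The shares of cells past a threshold were computed under the alternatives of cell filters, thresholds, depth and mixed lineages. Depth limits what can be said of *Cd8a*, *Areg* and *Il10*, with reads in a few cells a group.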

Other observations

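*Nnt*, the mitochondrial transhydrogenase which some C57BL/6 substrains lack in part, was named after its values were seen. In the *Csf1r* *Lyz2* cells it stood at 43.5 CPM in WT sham, 16.5 in CD3e-/- sham, 32.6 in WT TAC, 37.2 in labelled CD8-depleted TAC and 13.3 in CD3e-/- TAC, under the minimum level. In B cells it stood at 18.0, 8.10, 35.9, 29.7 and 5.21 CPM in the same order, and in the cells that were in neither gate at 25.8, 10.04, 25.7, 22.7 and 12.5 CPM. The 2 CD3e-/- groups were thus the lowest in each of these populations. What set *Nnt* apart was not tested.

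*Gm42031*, one of the gene models that part the genotypes, did so in B cells too, with 1365, 741, 1631, 1664 and 843 CPM, and in the cells of neither gate, with 911, 348, 1105, 1166 and 416 CPM.

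Among the 3675 genes of the *Csf1r* *Lyz2* cells, 3 had a 2-fold or larger gap between the CD3e-/- groups and the other 3 groups, and 5 a gap of 1.5-fold or larger. *Wdfy1* did not show the pattern in B cells, at 29.3, 30.9, 42.9, 45.3 and 36.2 CPM. *Gm46620* was close between the shams in B cells, at 168.5 CPM in WT sham and 147.4 in CD3e-/- sham.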
